A study of Mus musculus with 4 samples.

Results

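Meg3 and Zim1 are genes of the mouse that are imprinted, meaning that the copy from one parent is silenced, and both are known to be read from the copy inherited from the mother. Meg3 makes a long noncoding RNA and lies in the Dlk1-Dio3 domain, where Dlk1 and other protein-coding genes are read from the father's copy. Zim1 encodes a zinc finger protein and lies beside Peg3, a gene read from the father's copy. In the progeny of a cross between inbred strains, a base that differs between the strains shows which parent's copy gave a read. A reciprocal cross, in which the strains exchange the roles of mother and father, separates the effect of the parent from the effect of the strain.

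Every single nucleotide polymorphism (SNP) that the deposited counts list under the symbol Meg3 or Zim1 was taken, whether listed as exonic or as intronic. This gave 16 of 311375 SNP entries, in which a SNP listed under several genes counts once for each, and 2 of 11229 genes. Meg3 held 15 of them, 10 listed as exonic and 5 as intronic, and Zim1 held 1, which was exonic. Of the 16, reads covered 15 in BxD females, 12 in DxB females, 12 in BxD males and 13 in DxB males.

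RNA came from the gonadal fat pad of chow-fed F1 mice of C57BL/6J (B) and DBA/2J (D), in 4 pools that are named by the cross, with the mother's strain first, and by sex. The DxB female pool combined 2 animals and the other pools 3 each, and every pool was sequenced as 1 library, so animals within a pool cannot be told apart. The labels give an age of 8 weeks for all 4, while the study's methods give an older age. In the BxD pools the maternal allele was B, and in the DxB pools it was D.

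For 2 pools, the BxD male and the DxB female, the sample label gives the other's cross and sex, and the identity in the file name was used here. By file name, the gene counts of these pools equalled the study's own per-pool counts for 99.9% to 100% of 1996 genes, none of them a member, against 1.2% by label. Chromosome X, which an F1 male has only from its mother, was checked at 220 SNPs. The D allele gave 2.87% of its reads in BxD males (95% Wilson interval 2.58% to 3.19%) and 71.3% in DxB males (70.3% to 72.2%). It gave 38.1% in BxD females and 36.5% in DxB females. In DxB males 2615 reads were B beside 6486 D, although the only X of these males came from a D mother. The source of those B reads was not tested. Each of the results below that rests on the cross is the opposite, for these 2 pools, if the label is right.

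The pools held 4219333 to 5569347 allele-specific reads. Of 7 adipocyte markers, 4 had a counted SNP and together took 119000 to 155000 of every 1000000 counted exonic reads, among them Car3, Lpl, Cidec and Lep. Of 5 markers of epididymis or testis, 2 had a counted SNP. Both had 0 reads in 3 pools, whereas the DxB male pool had 188 reads of Adam7 and 17 of Lcn5. The part of these cells in the values below was not tested.

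The SNPs that carried most of the counts are shown with 25 bases on either side, in the direction of transcription, as the mm9 reference gives them. The reference carried the B base at 16 of 16 SNPs. The capital is the SNP in its B form, and the change to the D base is given with the position counted from 1 at the 5′ end of the printed sequence.

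The first 3 are the intronic SNPs of Meg3 that gave most of its reads. They lie on the plus strand of chromosome 12 at 110785985 (T26C), 110786258 (T26C) and 110786355 (T26C), in windows chr12:110785960-110786010, chr12:110786233-110786283 and chr12:110786330-110786380.
Meg3 SNP 1: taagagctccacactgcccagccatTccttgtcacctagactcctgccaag
Meg3 SNP 2: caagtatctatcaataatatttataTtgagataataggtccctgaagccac
Meg3 SNP 3: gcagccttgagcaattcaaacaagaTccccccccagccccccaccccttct

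The next 2 are the exonic SNPs of Meg3 with the most reads, at 110797479 (C26G) and 110799305 (C26G), in windows chr12:110797454-110797504 and chr12:110799280-110799330 of the plus strand. SNP 6 is shown also because it gave the only paternal read among the exonic SNPs.
Meg3 SNP 6: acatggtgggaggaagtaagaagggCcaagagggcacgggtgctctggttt
Meg3 SNP 9: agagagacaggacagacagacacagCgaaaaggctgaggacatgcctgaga

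The last is the SNP on which all Zim1 counts rest, at position 6630045 of chromosome 7 (A26G on the coding strand), in the window chr7:6630020-6630070 of the minus strand.
Zim1 SNP 1: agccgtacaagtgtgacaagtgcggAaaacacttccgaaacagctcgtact

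Meg3 is annotated by GENCODE M1 as a long intergenic noncoding RNA with 10 transcripts on the plus strand of chromosome 12, from 110779211 to 110809936 in mm9. SNPs 1, 2 and 3 lie 6.77, 7.05 and 7.14 kb from its annotated start, in an interval of 2614 bp, from 110784753 to 110787366, in which no annotated Meg3 transcript has an exon. SNPs 4 and 5, at 9.48 and 13.3 kb, lie in a later intron. The 10 exonic SNPs run from 18.27 to 26.68 kb and lie in an exon of 1 or 2 of the 10 transcripts. Whether their reads came from those transcripts or from unspliced RNA of the others was not tested. The annotation column of the deposited counts calls all 15 intronic, and the 10 are exonic by the exon column.

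Zim1 is annotated from 6628154 to 6649161 on the minus strand of chromosome 7. Its SNP is the third base of codon 443 of 579 in both annotated transcripts and is listed as synonymous, inside 1 of 11 stretches that match the zinc finger pattern of paired cysteines and histidines. Peg3 lies next to it, at 6656603 to 6683132. Zinc finger genes form a large family of similar sequences, and the counts hold uniquely placed reads only.

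Meg3 reads came almost entirely from the mother's copy in each of the 4 pools, and the allele changed with the direction of the cross. Over all 15 SNPs, BxD females had 389 maternal and 0 paternal reads and DxB females 360 and 9. BxD males had 253 and 1, and DxB males 176 and 0. In the BxD pools the reads were B, and in the DxB pools they were D. The sum over pools was 1178 maternal and 10 paternal reads, a ratio of 118 with a 95% exact counting interval of 63.8 to 246.

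Zim1 gave the same picture from 1 SNP. BxD females had 84 maternal and 0 paternal reads, DxB females 84 and 2, BxD males 45 and 0, and DxB males 36 and 0. The sum was 249 to 2, a ratio of 124 with a counting interval of 34.1 to 1030. Because a single base position carries all of these reads, no second SNP was at hand to compare with it.

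**Figure D1:**
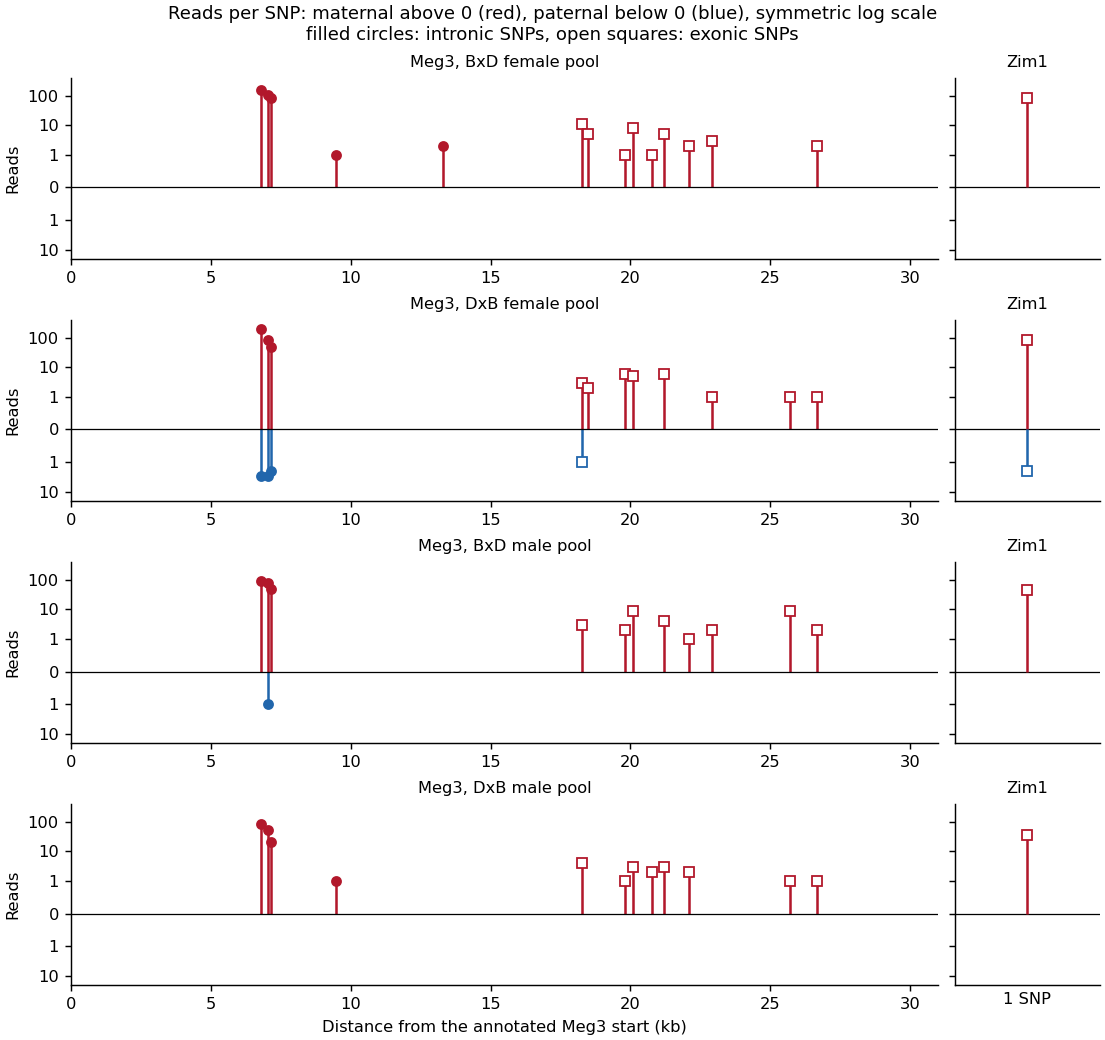
Reads per SNP of Meg3, by distance from the annotated start in kb, and of Zim1, in the 4 pools. Maternal reads are drawn upward in red and paternal reads downward in blue on a symmetric log scale, with filled circles for intronic and open squares for exonic SNPs. Paternal reads appear at 4 Meg3 SNPs and at Zim1 in the DxB female pool, and elsewhere only as 1 read in the BxD male pool.

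The 3 deep intronic SNPs of Meg3 took 1071 of its 1188 reads, or 90.2%. SNP 1 had 160 maternal reads in BxD females, 204 in DxB females, 92 in BxD males and 86 in DxB males, and its paternal reads were 0, 3, 0 and 0 in the same order. SNP 2 had 107, 83, 79 and 51 maternal reads, with 0, 3, 1 and 0 paternal. SNP 3 had 81, 48, 50 and 21 maternal reads, with 0, 2, 0 and 0 paternal. Each of the 3 was therefore maternal in each pool on its own. They are 273 and 97 bp apart, further than 1 read of 50 bases reaches, although mates of a pair were counted as separate reads and can fall on neighbouring SNPs. SNPs 4 and 5 had 2 reads each, all maternal.

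The 10 exonic SNPs were thinly covered, with 3 to 25 reads each over the 4 pools. SNP 9 was the deepest, with 8, 5, 9 and 3 maternal reads in the same order and 0 paternal. SNP 6 had 11, 3, 3 and 4 maternal reads and 1 paternal read, which fell in the DxB female pool. SNP 11 had 5, 6, 4 and 3 reads, all maternal. Of the 113 exonic reads, 112 were maternal, and 9 of the 10 SNPs had 0 paternal reads.

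Meg3 had 215 reads per intronic SNP and 11.3 per exonic SNP, a ratio of 19. Among 5085 genes with SNPs of both kinds and at least 100 reads in all, 119 (2.34%) had more reads per SNP in introns than in exons, the median ratio was 0.0398, and 11, Meg3 included, had a ratio at least as high as Meg3. The intronic reads of Meg3 thus gave a second, deeper set of counts that the exonic sum leaves out.

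How complete the silencing of the father's copy appeared was limited by the depth of each pool. In the BxD female pool, 0 of 389 Meg3 reads were paternal, and a count of 0 (taken as at most 3 reads) allows a share of up to 0.771%. The maternal count was there at least 130-fold higher than that floor. In the DxB male pool 0 of 176 reads were paternal, which allows up to 1.70%, and the maternal count was at least 58.7-fold higher than the floor. The BxD male pool had 1 of 254, or 0.394% (95% Wilson interval 0.0695% to 2.20%), and a ratio of 253 with a counting interval of 45.0 to 10000.

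The DxB female pool stood apart, with 9 of 369 paternal Meg3 reads, 2.44% (1.29% to 4.57%), and a maternal to paternal ratio of 40.0 (20.8 to 88.2). These 9 reads were spread over SNPs 1, 2, 3 and 6, and so did not come from 1 base position. At Zim1 the same pool had 2 of 86, 2.33% (0.640% to 8.09%), while 0 of 84 in BxD females, 0 of 45 in BxD males and 0 of 36 in DxB males allow up to 3.57%, 6.67% and 8.33%. The paternal allele in this pool is B, and the pool combined 2 animals where the others combined 3.

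Fisher's exact test, two-sided and adjusted over 12 pairs of pools (6 for each gene), compared the paternal shares. By Fisher's exact test the share of Meg3 differed between females of DxB and BxD (p = 0.00146, adjusted p = 0.0175). Against BxD males (Fisher's exact p = 0.0541, adjusted p = 0.256) and DxB males (Fisher's exact p = 0.0641, adjusted p = 0.256) the DxB female pool did not pass, and each remaining pair of either gene had an adjusted p of 0.256 or more. These tests compare libraries, not conditions. Without the DxB female pool, Meg3 had 818 maternal reads and 1 paternal read, 0.122% (0.0216% to 0.688%), and Zim1 had 165 and 0, which allows up to 1.82%. Intervals, floors and these p-values cover counting error only, since copies made by PCR cannot be told from separate molecules. They also take each read as independent. Mates of a pair were counted as separate reads, so paternal reads at neighbouring Meg3 SNPs may come from the same molecule.

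**Figure D2:**
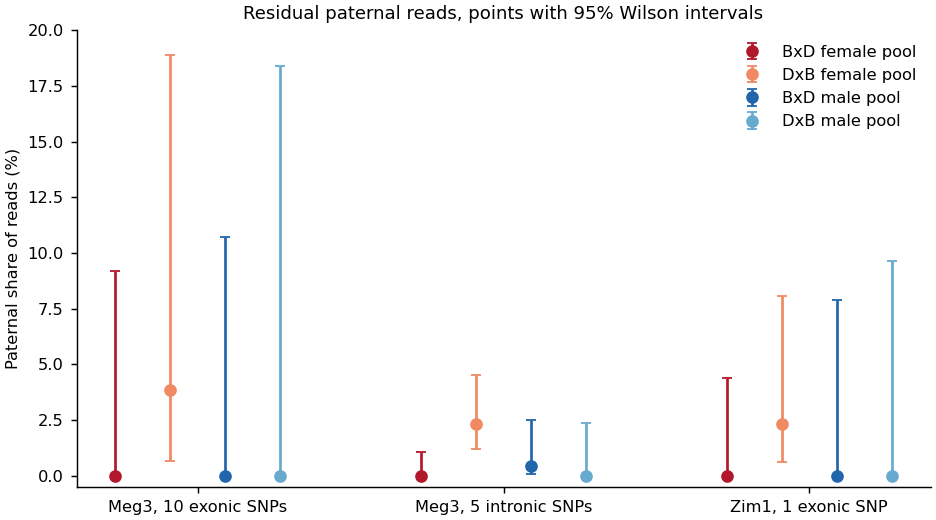
Paternal share of reads in percent for Meg3 exonic, Meg3 intronic and Zim1 exonic SNPs, 1 point for each pool with its 95% Wilson interval. The DxB female points are the highest in each group, at 3.85%, 2.33% and 2.33%, and the intervals of the 4 pools overlap at the thinly covered exonic SNPs of Meg3 and at Zim1.

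The test of parent of origin asked, for every gene, whether maternal and paternal allele counts differed beyond the spread between pools. It treated the alleles of the 4 pools as 8 libraries (edgeR's quasi-likelihood test, with Benjamini-Hochberg adjustment over 7988 genes). With the pools as replicates, 4 genes passed (0.0501% of those tested), 2 of them in the maternal direction (0.0250%), and 44 had an unadjusted p under 0.05 (0.551%). Meg3 was one of the maternal 2. Its 10 exonic SNPs had 38 maternal and 0 paternal reads in BxD females, 25 and 1 in DxB females, 32 and 0 in BxD males, and 17 and 0 in DxB males. The log2 ratio of maternal to paternal counts was 6.20 ± 0.71 (SE, edgeR adjusted p = 0.0395), maternal in 4 of 4 pools.

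Zim1 had a log2 ratio of 6.62 ± 0.83 and an edgeR adjusted p of 0.0531, maternal in 4 of 4 pools, and did not pass. With DESeq2 it passed, at 6.93 ± 1.09 (DESeq2 adjusted p = 3.82e-07), as did Meg3 at 6.49 ± 1.1 (DESeq2 adjusted p = 5.57e-06), among 7 genes that passed there (0.0876%). With paternal counts at or near 0, the size of the edgeR ratio depends on the small count that edgeR adds. Neither the edgeR nor the DESeq2 ratio is a bound.

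At the 5 intronic SNPs of Meg3, which had more depth, BxD females had 351 maternal and 0 paternal reads, DxB females 335 and 8, BxD males 221 and 1, and DxB males 159 and 0. The log2 ratio was 6.79 ± 0.63 (edgeR adjusted p = 8.99e-05 over 9560 genes with intronic reads). Of these, 3 passed (0.0314%), and Meg3 was the 1 in the maternal direction (0.0105%).

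The 2 alleles of a pool come from the same animals. With the pool as a replicate block, 0 genes passed at exonic SNPs, where 37 had an unadjusted p under 0.05. The blocked log2 ratio of Meg3 was 6.33 ± 0.91 (unadjusted p = 0.00134 and adjusted p = 1 by edgeR). That of Zim1 was 7.01 ± 0.92 (unadjusted p = 0.000929 and adjusted p = 1 by edgeR). At intronic SNPs the blocked ratio of Meg3 was 7.27 ± 0.79 (unadjusted p = 3.92e-05 and adjusted p = 0.188 by edgeR). Leaving out any one pool also ended the exonic call of Meg3, with adjusted p from 0.523 to 0.698, whereas the intronic call held without each pool, with edgeR adjusted p from 5.33e-09 to 0.000192.

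For each gene an exact permutation test that flips the sign of each pool's log2 ratio gave a two-sided p of 2 in 16, the smallest that 4 pools allow. On the log2 scale with 0.5 reads added to each count, the mean ratio over the 4 pools was 7.68 ± 1.86 (SD, n = 4) for all Meg3 SNPs and 6.29 ± 0.96 (SD, n = 4) for Zim1.

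**Figure D3:**
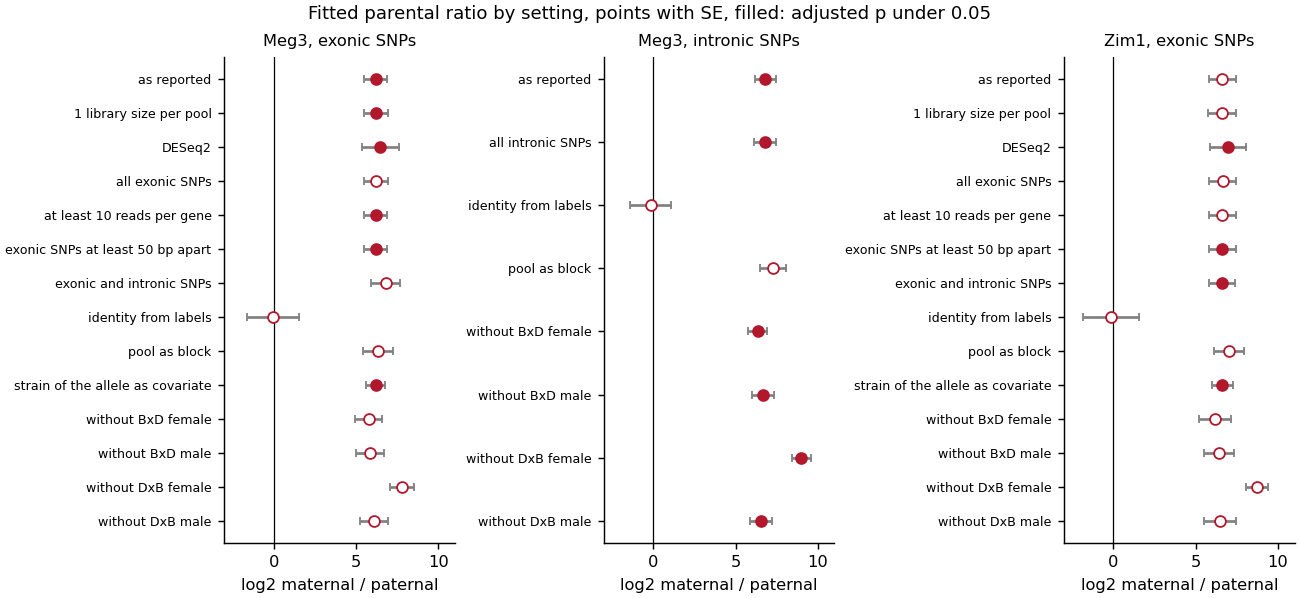
Fitted log2 ratio of maternal to paternal counts with its SE, for Meg3 exonic, Meg3 intronic and Zim1 exonic SNPs, under each setting run, with filled points where the adjusted p was under 0.05. The ratios lie between 5.77 and 8.99 except where the identity of 2 pools is taken from the labels, which puts them at -0.04, -0.17 and -0.13.

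Neither gene passed the test of the strain of the allele. The BxD pools, where B is maternal, and the DxB pools, where D is maternal, were both maternal, so that over the 4 pools the log2 ratio of D to B was -0.46 ± 1.19 for Meg3 (edgeR adjusted p = 0.859) and 0.17 ± 1.26 for Zim1 (edgeR adjusted p = 0.966). In the same test 1414 of 7988 genes passed (17.7%). That model has no term for the parent, so for a gene read from one parent's copy each strain's libraries are partly full and partly near 0, and its standard error is wide by construction. With the parent as a covariate, a model chosen after seeing the data, the log2 ratio was -0.47 ± 0.46 for Meg3 (edgeR adjusted p = 0.635) and 0.07 ± 0.51 for Zim1 (edgeR adjusted p = 0.969), and 1262 genes passed (15.8%). Without the covariate the ratios ranged from -1.66 to 0.58 for Meg3 and from -1.42 to 1.56 for Zim1 when single pools were left out. For Meg3 they were 0.58 and 0.43 without a BxD pool and -1.66 and -1.28 without a DxB pool. For Zim1 they were 1.56 and 0.8 against -1.42 and -0.4. Leaving out a pool unbalances the mothers' strains, so the sign of a maternally read gene turns by construction.

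The level of each gene was compared between the sexes as RPM, the reads of both alleles in every 1000000 allele-specific reads of the pool, with exact 95% counting intervals. Zim1 had 15.1 RPM (12 to 18.7) in BxD females and 16.4 (13.1 to 20.2) in DxB females. It had 8.49 RPM (6.19 to 11.4) in BxD males and 8.53 (5.98 to 11.8) in DxB males. Both male pools were lower than both female pools. The share of all genes with this order was not counted, so the order alone does not set Zim1 apart. The log2 difference of males minus females was -0.84 ± 0.28 (unadjusted p = 0.00956 and adjusted p = 0.172 by edgeR), which did not pass. In that test 230 of 7988 genes passed (2.88%), 104 of them lower in males (1.30%), and 933 had an unadjusted p under 0.05 (11.7%).

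Meg3 at its intronic SNPs had 63.0 RPM (56.6 to 70.0) in BxD females and 65.4 (58.6 to 72.7) in DxB females, beside 41.9 (36.5 to 47.7) in BxD males and 37.7 (32.1 to 44.0) in DxB males. The males were again the lower 2 without overlap, an order whose share among all genes was not counted. The log2 difference was -0.52 ± 0.22 (unadjusted p = 0.0155 and adjusted p = 0.393 by edgeR), which did not pass. Among 9560 genes with intronic reads 133 passed (1.39%), and 691 had an unadjusted p under 0.05 (7.23%).

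At the exonic SNPs of Meg3 the values were 6.82 RPM in BxD females, 4.96 in DxB females, 6.03 in BxD males and 4.03 in DxB males. The sexes overlapped there, with a log2 difference of -0.16 ± 0.39 (edgeR adjusted p = 0.945) that turned to 0.08 without the DxB male pool and to 0.03 without the BxD female pool. With 2 pools of each sex these tests measure the spread between pools. Fewer cells that express a gene and less RNA per cell cannot be told apart in such pools.

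The markers listed for ovary or uterus were read in both sexes. Their summed level was 180 and 95.8 of every 1000000 counted exonic reads in BxD and DxB females and 97.4 and 69.2 in BxD and DxB males, with 4 of 4 measured, so the sexes overlapped. Esr1, the deepest of the list, had 388 and 206 reads in females and 303 and 169 in males, and Ovgp1 had 24 and 10 in females and 16 and 10 in males. Wt1, also known from the lining of visceral fat, had 352 and 177 reads in females and 86 and 53 in males, and Pgr had 2 and 1 in females and 0 in both male pools. The stromal markers Pdgfra and Col3a1, 2 of 5 listed, summed to 3360 and 2200 in females and 2870 and 3240 in males. Their part in the levels of Meg3 and Zim1 was not tested.

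**Figure D4:**
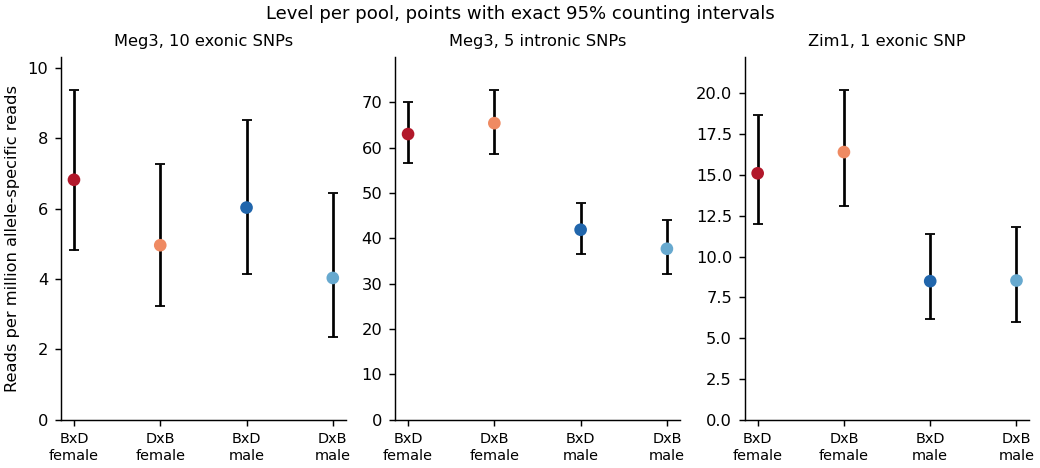
Reads of both alleles in every 1000000 allele-specific reads (RPM) in the 4 pools for Meg3 exonic, Meg3 intronic and Zim1 exonic SNPs, with exact 95% counting intervals. Both male pools lie below both female pools for the Meg3 intronic SNPs (41.9 and 37.7 against 63.0 and 65.4) and for Zim1 (8.49 and 8.53 against 15.1 and 16.4). The sexes overlap for the Meg3 exonic SNPs. How many of all genes show the same order of pools was not counted.

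Whether the parental ratio itself differed between the sexes was also tested. The difference of log2 ratios, males minus females, was 2.09 ± 1.32 for Meg3 and 2.26 ± 1.42 for Zim1 at exonic SNPs, both with an edgeR adjusted p of 1, where 11 of 7988 genes passed (0.138%). The paternal reads of the female group came from the DxB female pool alone.

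At 2 of the 3 deep intronic SNPs of Meg3, the share of reads that fell on the SNP had values in the DxB pools that did not overlap those of the BxD pools. SNP 1 took 46.0% (40.8% to 51.2%) of the reads at the 3 in BxD females and 41.4% (35.2% to 48.0%) in BxD males, against 60.3% (55.1% to 65.4%) in DxB females and 54.4% (46.7% to 62.0%) in DxB males. SNP 3 took 23.3% (19.1% to 28.0%) and 22.5% (17.5% to 28.5%) in the BxD pools, against 14.6% (11.2% to 18.7%) and 13.3% (8.86% to 19.5%) in the DxB pools. SNP 2 took 30.7% and 36.0% against 25.1% and 32.3%, and did not separate the crosses. For SNPs 1 and 3 the DxB pools thus lay apart from the BxD pools in both sexes, without overlap of the values. The shares of a pool add up to the whole, so the higher share at SNP 1 and the lower at SNP 3 are not separate results. How many other sets of SNPs separate the crosses in this way was not counted. With 2 pools a cross no test was run on this, and the strain of the allele that was read and the strain of the mother cannot be told apart. The printed sequence of SNP 3 shows T before a run of C. With its D base the run is 9 bases long, while the D base of SNP 1 stands in a run of 3. The part of these runs in the shares was not tested.

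**Figure D5:**
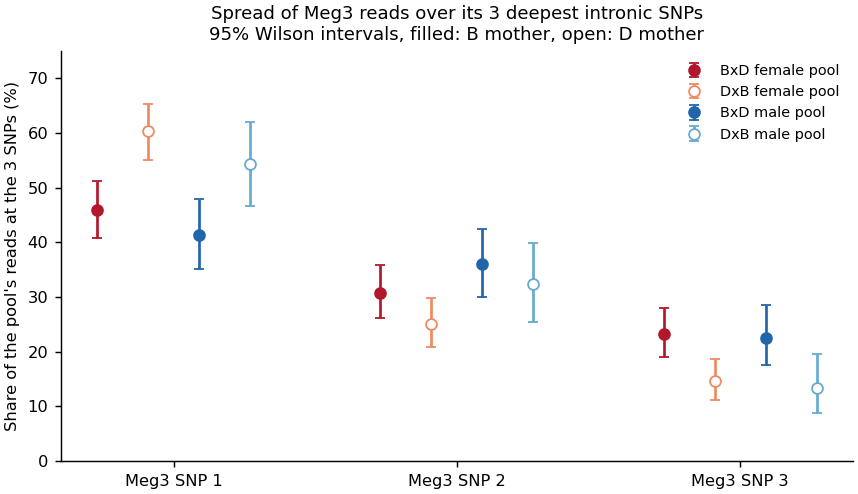
Share, in percent, of the pool's reads at the 3 deepest intronic SNPs of Meg3 that fell on each SNP, with 95% Wilson intervals, filled for pools with a B mother and open for pools with a D mother. The open points lie above the filled ones at SNP 1 (54.4% and 60.3% against 41.4% and 46.0%) and below them at SNP 3 (13.3% and 14.6% against 22.5% and 23.3%).

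Neighbours of Meg3 were read from a list of 10 genes of the Dlk1-Dio3 domain and its flanks, of which 6 had any read and 5 had exonic reads. Of the 5, 0 passed the edgeR test of parent of origin, beside 0.0501% of all genes tested, a background too low for a count over 5 genes to bear on the domain. Their median log2 ratio was -0.12 beside -0.006 over all genes. Dlk1, which encodes a transmembrane protein known to hold back adipocyte formation, lies upstream of Meg3 at 110691033 to 110701546 and was covered at 1 exonic SNP. It had 3 maternal and 13 paternal reads in BxD females, 1 and 7 in DxB females, 0 and 0 in BxD males, and 0 and 3 in DxB males. The paternal reads were thus the more numerous in the 3 pools with reads, opposite to Meg3, and 14.8% were maternal (5.92% to 32.5%). The log2 ratio was -2.40 ± 1.21 (edgeR adjusted p = 1).

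The flanking genes were read from both copies. Wars, the tryptophan-tRNA ligase of the cytosol, had 5406 maternal and 5183 paternal exonic reads, 51.1% maternal. Slc25a29, a mitochondrial carrier, had 329 and 315, Wdr25 had 64 and 76, Begain had 48 and 52, and Yy1, a transcription factor, had 9 and 5 at intronic SNPs. Maternal reads of Wars outnumbered paternal ones in the BxD pools, with 1744 to 1098 in females and 1486 to 1167 in males. In the DxB pools they were fewer, with 1302 to 1643 in females and 874 to 1275 in males, so that the B allele gave more reads in all 4, unlike at Meg3. Rtl1, Rian, Mirg and Dio3 had no read here. Of 8 genes listed around Peg3 and Zim1, Peg3 included, 0 had a read, so that Zim1 was the single gene of its domain with allele counts.

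Among 20 other genes known for maternal expression in some tissue, 13 had reads and 9 had exonic reads. For one of the 9, Igf2r, the exonic positions are listed first under an overlapping gene, so 8 were tested, and 1 of the 8 passed in the maternal direction (0.0250% of all genes), at a median log2 ratio of 0 beside -0.006 over all genes. That gene was H13, a signal peptide peptidase, with 2694 maternal and 1345 paternal exonic reads, 66.7% maternal, and a log2 ratio of 1.01 ± 0.12 (edgeR adjusted p = 0.0395). Its paternal copy gave 30.0% to 35.5% of the reads of a pool, against 0% to 3.85% at the exonic SNPs of Meg3. Grb10, an adaptor protein of growth factor receptors, had 16 and 6 reads in BxD and DxB females and 5 and 4 in BxD and DxB males, at intronic SNPs alone, and all 31 were maternal. Nap1l4, a histone chaperone, had 54 and 57 exonic reads in BxD and DxB females and 70 and 46 in BxD and DxB males. All were from the B allele, and so were counted as maternal in the BxD pools and paternal in the DxB pools. Igf2r exonic reads were also all B, with 115 and 111 in BxD and DxB females and 129 and 141 in BxD and DxB males. Sanger sequencing in the study verified none of the B-only SNPs it tested, and neither gene was among them. Whether the strains differ at these positions was not tested here, so such reads may not tell the parents apart.

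The genes most like each member were sought by the root mean square distance of the maternal shares over the 4 pools, among 5899 genes with at least 5 counted exonic reads in each pool. Meg3 and Zim1 were nearest to each other, at a distance of 0.0076 on a scale from 0 to 1. The next nearest to both were Hgf, at 0.194 from Meg3 and 0.196 from Zim1, and Fam120c, at 0.235 and 0.239. Hgf, a growth factor of epithelial cells, had 75% and 85.7% maternal reads in BxD and DxB females and 83.3% and 77.8% in BxD and DxB males, from 6 to 9 reads in each. Fam120c had 60% and 71.4% maternal reads in BxD and DxB females and 100% in both male pools, from 5 to 10 reads in each. Its likeness thus rests mainly on the male pools. Genes of chromosome X, which an F1 male has only from its mother, were not left out of this search. None of the other genes compared was as maternal in all 4 pools as Meg3 and Zim1.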

How the data were processed

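The authors deposited raw counts, without normalization, of reads carrying the B or the D base at each SNP. By the study's methods, mates of 50 bp pairs were treated as single reads and aligned to mm9 with mrsFAST, with up to 3 mismatches and D variants masked (a supplement reads partly otherwise), then with TopHat (version 1 in the submitters' processing notes), and unique reads were kept. Pools gave 4219333 to 5569347 such reads.

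Exonic SNPs were those given an exon, each position once, and within an exon SNPs over 18 bp after the last one kept (44210 SNPs, 7988 genes with reads). Intronic SNPs were treated likewise. Counts per allele and pool, as 8 libraries, were tested with edgeR 4.0.16 in R 4.3.3 (TMM, quasi-likelihood, Benjamini-Hochberg, threshold 0.05), with the SE as the absolute log2 ratio over the square root of F, and with DESeq2 1.42.0 as an alternative. Shares carry 95% Wilson intervals and a floor of 3 counts, levels and ratios exact ones. On simulated counts of 7843 genes for the parental test, 100% of 100 genes changed by 2 log2 units and of 100 changed by 6, all of 100 to 400 reads, were recovered, with 1 call when no gene was changed. The simulated counts were independent, with the same spread for every gene, unlike the real ones. The recovery is thus not the power of the real test, which Zim1, with reads in that range, did not pass. The alleles of a pool come from the same animals and deviated together (r = 0.650, 0.648, 0.196 and 0.146 across 5113 genes, which are not independent), so pool is a true block. Alternatives were another library size, low-count and SNP spacing rules, exonic with intronic SNPs, block, strain as covariate, label identity and each pool left out. Chosen after seeing the data were, for the sex test, exonic with intronic SNPs, intronic SNPs alone and each pool left out, for the strain test, parent as covariate and each pool left out, for the intronic parental test, the block and each pool left out, and the test of ratio by sex. Python 3.11.15, scipy 1.17.1, statsmodels 0.14.6 and matplotlib 3.10.9 were used, with NCBIM37 (mm9) and GENCODE M1.

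The members and gene lists were chosen with earlier results of these data known. Genes were named by rule: the members with every exonic SNP, listed domain genes with a read, up to 4 other maternally expressed genes and the 3 genes nearest in maternal share. Genes of the closing section were chosen after their values were seen.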

Additional observations from a re-analysis of the deposited data

Results flagged for a closer look

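In the DxB female pool the paternal share met Dixon's criterion for an outlier among 4 values in 3 of 8 sets of pool values examined. It was 3.85% for the exonic SNPs of Meg3 (1 of 26 reads, against 0% in each of the other pools), 2.44% for all Meg3 SNPs (9 of 369, against at most 0.394%) and 2.33% for Zim1 (2 of 86, against 0%). Chance gives about 1 in 20 of such sets for continuous values. That rate does not hold for the first and the last of the 3, where the other 3 pools are tied at 0 and any single paternal read meets the criterion, so these flags carry no evidence of a difference. The exonic reads are also part of the sum over all Meg3 SNPs. The intronic share of this pool, 2.33%, and the levels in RPM did not stand apart by the criterion. The first and the last rest on 1 and 2 reads, and the Fisher's exact p of Zim1 was 0.497 or more against each pool.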

How the results depend on the processing

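The parental ratios kept their direction under every alternative run except the identity from the labels, which gave -0.04 (Meg3 exonic), -0.17 (Meg3 intronic) and -0.13 (Zim1) and 0 called genes, put the paternal share at exonic SNPs at 96.2% (Meg3) and 97.7% (Zim1) in the DxB female pool and at 100% for both in the BxD male pool, and turned the sex difference of Zim1 to 0.16, since it swaps those 2 pools. The exonic call of Meg3 was lost with all exonic SNPs (6.20, edgeR adjusted p = 0.0501), exonic with intronic SNPs (6.80, 0.0754), the replicate block (6.33) and each pool left out (5.77 to 7.80), and its intronic call only under the block (7.27) and the labels (leaving out pools, 6.33 to 8.99). Zim1 passed with DESeq2 (6.93), 50 bp spacing (6.62, edgeR adjusted p = 0.0479), exonic with intronic SNPs (6.62, 0.0460) and strain as covariate (6.62, 0.000657), and its ratio was 6.17 to 8.72 with pools left out. Adjusted p over the 13 exonic alternatives ran from 5.57e-06 to 1 for Meg3 and from 3.82e-07 to 1 for Zim1. Genes called by parent numbered 4 as reported, 2 with all exonic SNPs, 5 with 50 bp spacing, 7 with DESeq2, 7 with strain as covariate, 0 under the block and 0 to 1 with pools left out, where the lone sample of a cross is assumed to vary like the rest. The strain ratio of Zim1 was -0.02 under the block. With pools left out the ranges were -1.66 to 0.58 (Meg3) and -1.42 to 1.56 (Zim1), a shift that the unbalanced mothers' strains give by construction. The sex difference was -0.49 to 0.08 for Meg3 exonic SNPs, -0.70 to -0.34 for its intronic SNPs and -0.95 to -0.72 for Zim1. With exonic and intronic SNPs summed it was -0.57 for Meg3 (edgeR adjusted p = 0.0933). The other alternatives for the paternal shares changed nothing, as all 10 exonic SNPs of Meg3 and the 1 of Zim1 stayed in. The exonic counts of both genes were thus the same under each spacing rule, and Zim1 has no intronic SNP to add to its count. The cause of a lost or gained call was not tested. Depth limits the exonic shares of Meg3 most, where 0 of 17 to 38 reads allow up to 7.89% to 17.6%.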

Other observations

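The next 4 genes, read from the father's copy, were chosen after their values were seen. At exonic SNPs, Sgce, Ndn and Mkrn3 had their highest share of reads from the silenced copy in the DxB female pool. Sgce had 18 maternal reads beside 658 paternal there, 2.66%, and 3 beside 838 in BxD females, 4 beside 616 in BxD males and 3 beside 480 in DxB males, 0.357% to 0.645%. Ndn, a gene of the Prader-Willi domain, had 14 maternal beside 94 paternal reads in the DxB female pool, 13%, and 1.16% to 5.32% in the other 3 pools. Mkrn3 had 1 maternal beside 4 paternal reads there and 0 maternal in the other pools. Snrpn had 0 maternal of 31 exonic reads in the DxB female pool and 1 of 8 in the BxD male pool. At intronic SNPs Snrpn had 1 maternal beside 16 paternal reads in the DxB female pool and 0 maternal in the other pools. Sgce had 17 intronic reads, all paternal. In the DxB female pool the silenced copy is B for Meg3 and Zim1 and D for Sgce and Ndn. No test was run on these values.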
